A study of Homo sapiens with 6 samples.

Results

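The genes described here are 10 core components of the Hippo pathway: the kinases STK3, LATS1 and LATS2, the co-activators YAP1 and WWTR1 (the gene of TAZ), the DNA-binding factors TEAD1, TEAD2, TEAD3 and TEAD4, and the TEAD inhibitor VGLL4. They were chosen by name, with earlier results of these data already known. They form the part of the pathway between the kinases and DNA, and make up 10 of the 58735 genes in the deposited count table. The question was whether the mRNAs of the kinases and of the co-activators themselves differed when CNOT7 was knocked down. CNOT7 is a deadenylase of the CCR4-NOT complex, which shortens the poly(A) tails of mRNAs.

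The 6 RNA-seq libraries came from 3 samples of control cells and 3 samples of cells with stable shRNA knockdown of CNOT7, none of them irradiated or otherwise treated. The labels give the cell line as SW480, a human colorectal cancer line, whereas the text of the study describes its RNA sequencing in HCT116, another colorectal cancer line. According to the methods, the shRNAs were delivered with a lentiviral vector that carries copGFP and a puromycin resistance gene; which shRNA was used for these libraries is not stated. No source used here says that the libraries of a group came from separate cultures or clones, so the p-values measure only the spread between these libraries, which may be technical.

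The Hippo pathway is a kinase cascade that limits growth. STK3 and STK4 (MST2 and MST1) activate LATS1 and LATS2, which phosphorylate YAP and TAZ and thereby keep them out of the nucleus or mark them for degradation. Unphosphorylated YAP and TAZ bind TEAD proteins on DNA and switch on growth and matrix genes, and in the colon the pathway is known for its part in regeneration and in tumours. Much of this control acts on proteins, whereas the data here are mRNA counts.

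The libraries held 23788451 to 25982493 counts in the control group and 27523812 to 29104872 in the knockdown group. CNOT7, the targeted gene, was measured at 169, 191 and 176 CPM (counts scaled to an equal total per library, after TMM normalization) in control replicates 1, 2 and 3. It was at 43.4, 47.2 and 38.6 CPM in knockdown replicates 1, 2 and 3. The log2 fold change was -2.05 (standard error 0.0734, adjusted p = 2.64e-12 by the quasi-likelihood test of edgeR, with Benjamini-Hochberg adjustment over all tested genes). Of 12 colon epithelium markers, 9 could be tested: EPCAM was at 212 ± 4.83 CPM (SD, n = 3) in the control libraries, while KRT20, CDX1 and CEACAM5 had at most 4 counts in any library. Among the epithelial markers VIL1 and CDH1 were higher with knockdown (log2 fold changes 0.72 and 0.51) and KRT8 and KRT19 lower (-0.15 and -0.18). Of 14 leukocyte, fibroblast and endothelial markers, 4 could be tested. Their summed level was 2.24 to 3.31 CPM for leukocytes in the control libraries and 3.44 to 4.10 CPM with knockdown, 7.09 to 9.42 against 8.81 to 9.64 CPM for fibroblasts, and 1.32 to 2.02 against 2.05 to 3.15 CPM for endothelium, with COL3A1 and DCN at 0 counts in every library. The part of these marker differences in the results that follow was not tested. In bulk RNA, fewer cells of a type and less RNA per cell cannot be told apart.

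Across the 10 genes, LATS2, YAP1 and TEAD4 were lower with CNOT7 knockdown and VGLL4 was higher, while STK3, LATS1, WWTR1, TEAD1, TEAD2 and TEAD3 did not pass the test. All 10 had enough counts to be tested, from 391 reads for STK3 in its lowest library to 13655 for TEAD1 in its highest. Thus 4 of 10 passed an adjusted p of 0.05, where 25.2% of all 17574 tested genes did. By direction, 3 of 10 were lower, against a background of 11.9%, and 1 of 10 was higher, against 13.3%. All 10 had a mean of at least 10 CPM, and among the 10107 genes at that level 30.2% were called, 1795 lower and 1260 higher. The 10 were chosen with earlier results of these data known, so these counts are no independent evidence. The median log2 fold change of the 10 genes was -0.12, and that of all tested genes was 0.0039. LATS2 moved most among the 10, and 18.4% of all tested genes, whatever their level, had a larger absolute log2 fold change than LATS2. The split of calls over all genes depended on the scaling, with 52.6% of the called genes higher under TMM, 64.6% under upper quartile factors and 66.4% with library totals alone, but the same 3 genes were lower and VGLL4 higher under each.

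**Figure D1:**
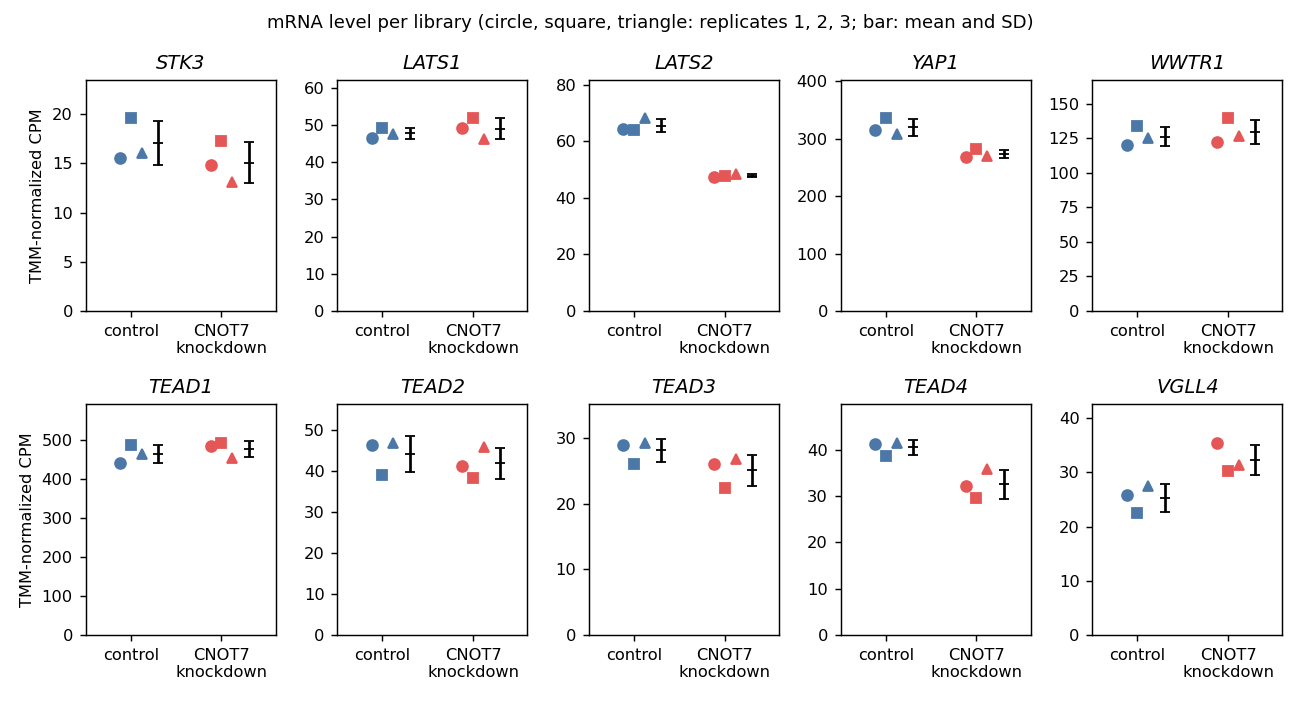
TMM-normalized CPM (vertical axes, from 0) of each gene in the 3 control and 3 CNOT7 knockdown libraries, with circles, squares and triangles for replicates 1, 2 and 3 and bars for the mean and SD. The knockdown points lie below all control points for LATS2, YAP1 and TEAD4, and above them for VGLL4, while the groups overlap for the other 6 genes, by 1 knockdown library each for STK3 and TEAD3.

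Of the kinases, LATS2 fell and LATS1 did not pass the test. LATS2 (ENSG00000150457, chr13:20973032-21061547, reverse strand, GRCh38) encodes one of the kinases that phosphorylate YAP and TAZ directly. Its level was 64.5, 64.0 and 68.1 CPM in control replicates 1, 2 and 3 and 47.4, 47.9 and 48.4 CPM in knockdown replicates 1, 2 and 3. Every knockdown library lay below every control library, and the knockdown libraries differed from each other by little, with an SD of 0.491 CPM against 2.28 CPM in the control group. The knockdown mean was 73.1% of the control mean (95% interval of the fitted ratio 66.8% to 80.0%). The log2 fold change was -0.45 (standard error 0.0617, adjusted p = 3.73e-05 by edgeR, Benjamini-Hochberg), and it passed the test in all 15 alternative analyses, between -0.47 and -0.41.

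LATS2 is itself one of the genes that YAP, TAZ and TEAD are known to switch on, and it is also part of the list of YAP and TAZ target genes used below. Its promoter is shown because it holds the core letters of the TEAD motif, GGAATG. The stretch comes from the RefSeq promoter window (GRCh38.p14, chr13:21061560-21061589, reverse strand), written 5′ to 3′ along the gene, with the motif in capitals.
LATS2: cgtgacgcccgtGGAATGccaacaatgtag
The motif begins at base 10 of the RefSeq transcript, whose start lies 39 bases before the start of the gene in the count table. RefSeq windows of 300 bases (250 before and 50 after a start) were found for 7 of the 10 genes, 14 windows in all. GGAATG, searched on both strands, occurred in 2 of these 14 windows, those of LATS2 and YAP1. Of all 35116 windows in the table, 14.03% held it, so the share among the members was near that of all windows. The match is a description of the letters and was not tested as a binding site.

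LATS1 (ENSG00000131023, chr6:149658153-149718256, reverse strand) encodes the other kinase of the pair. It was at 46.5, 49.3 and 47.5 CPM in the control libraries and 49.2, 51.8 and 46.1 CPM in the knockdown libraries. The groups overlapped, with the highest and the lowest of the 6 values both in the knockdown group. The knockdown level was 103% of control with a 95% interval of 93.0% to 113% (log2 fold change 0.04, standard error 0.0674, adjusted p = 0.734 by edgeR, Benjamini-Hochberg). Per kilobase of gene, LATS2 was at 11.7 ± 0.408 CPM per kb (SD, n = 3) and LATS1 at 5.52 ± 0.164 in the control libraries. LATS2 made up 68.3%, 66.8% and 69.0% of the LATS mRNA per kilobase in the control libraries and 59.9%, 58.9% and 61.9% in the knockdown libraries. LATS2 was therefore the more abundant of the pair in all 6 libraries, and its share was lower in each knockdown library than in each control library. The summed level of both was 17.3 ± 0.398 CPM per kb in the control and 14.3 ± 0.292 in the knockdown group (SD, n = 3), again without overlap.

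STK3 (ENSG00000104375, chr8:98371228-98942827, reverse strand), the gene of the upstream kinase MST2, had the lowest level per kilobase of the 10. Its values were 15.6, 19.6 and 16.0 CPM in the control libraries and 14.8, 17.2 and 13.1 CPM in the knockdown libraries. The groups overlapped, and replicate 2 was the highest library of both. The knockdown level was 88.3% of control with a 95% interval of 74.9% to 104% (log2 fold change -0.18, standard error 0.113, adjusted p = 0.272 by edgeR, Benjamini-Hochberg). With single libraries left out, its log2 fold change went from -0.29 (without knockdown replicate 2) to -0.073 (without control replicate 2), with -0.093 without knockdown replicate 3. Its paralogue STK4, the gene of MST1, was at 222, 248.7 and 233 CPM in the control and 251, 261 and 250.2 CPM in the knockdown libraries. For STK4 the log2 fold change was 0.11 (standard error 0.0545, adjusted p = 0.143 by edgeR, Benjamini-Hochberg), although its groups did not overlap, and with the replicate number as a block its adjusted p was 0.0109 in the same edgeR test. STK3 made up 4.72% to 5.36% of the mRNA of this pair per kilobase in the control libraries and 3.64% to 4.54% in the knockdown libraries.

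Of the co-activators, YAP1 fell slightly and WWTR1 did not pass the test. YAP1 (ENSG00000137693, chr11:102110461-102233423, forward strand) was at 315, 336 and 309 CPM in control replicates 1, 2 and 3 and at 268, 282 and 271 CPM in knockdown replicates 1, 2 and 3. The lowest control library lay above the highest knockdown library. The knockdown mean was 85.6% of the control mean (95% interval 79.3% to 92.3%). The log2 fold change was -0.22 (standard error 0.0521, adjusted p = 0.00416 by edgeR, Benjamini-Hochberg). YAP1 passed the test in all 15 alternatives, with log2 fold changes from -0.25 to -0.16 and adjusted p-values of at most 0.0268.

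The YAP1 promoter held the second match to GGAATG among the 10 genes and is printed for that reason. The 250 bases before the RefSeq start (GRCh38.p14, chr11:102110197-102110446, forward strand) read as follows, 5′ to 3′, with the motif in capitals.
YAP1: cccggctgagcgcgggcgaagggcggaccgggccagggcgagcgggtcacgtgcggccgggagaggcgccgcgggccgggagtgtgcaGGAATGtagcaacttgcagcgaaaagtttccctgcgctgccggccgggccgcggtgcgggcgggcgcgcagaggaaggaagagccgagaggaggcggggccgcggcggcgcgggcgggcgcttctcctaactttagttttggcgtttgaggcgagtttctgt
The motif begins 162 bases before that start and lies on the strand of the gene, as in LATS2. The windows of LATS1, WWTR1, TEAD2, TEAD3 and VGLL4 did not hold these letters.

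WWTR1 (ENSG00000018408, chr3:149517235-149736714, reverse strand), the gene of TAZ, was at 119.8, 133 and 125 CPM in the control and 122, 139 and 126 CPM in the knockdown libraries. The groups overlapped over most of their range. The knockdown level was 103% of control with a 95% interval of 93.7% to 113% (log2 fold change 0.04, standard error 0.0625, adjusted p = 0.708 by edgeR, Benjamini-Hochberg). Per kilobase, YAP1 was at 50.8 ± 2.25 CPM per kb and WWTR1 at 14.98 ± 0.818 in the control libraries (SD, n = 3), a ratio of 3.40 ± 0.106. With knockdown the ratio was 2.83 ± 0.114 (SD, n = 3), and the share of YAP1 in the pair went from 76.8% to 77.8% across the control libraries to 73.0% to 74.6% across the knockdown libraries. YAP1 thus stayed the main co-activator mRNA in every library.

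**Figure D2:**
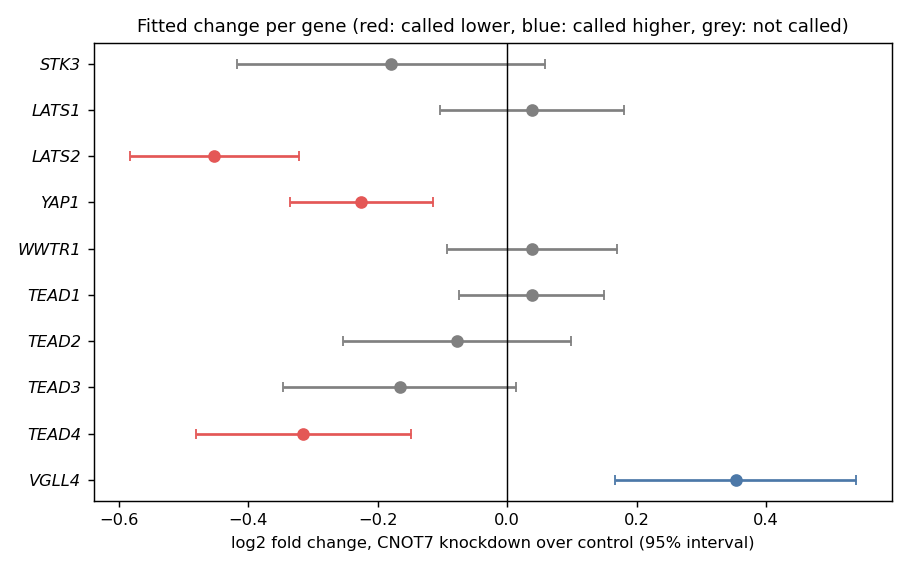
Log2 fold change of CNOT7 knockdown over control (horizontal axis) for each gene, with its 95% interval from the edgeR fit. The intervals of LATS2, YAP1 and TEAD4 lie below 0 and that of VGLL4 lies above 0, while the other 6 cross 0.

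Of the TEAD factors, which carry YAP and TAZ to DNA, TEAD4 fell. TEAD4 (ENSG00000197905, chr12:2959330-3040673, forward strand) was at 41.3, 38.6 and 41.5 CPM in the control libraries and at 32.1, 29.5 and 35.9 CPM in the knockdown libraries. The groups did not overlap, and replicate 2 was the lowest library of both. The knockdown mean was 80.4% of the control mean (95% interval 71.6% to 90.2%). The log2 fold change was -0.31 (standard error 0.0789, adjusted p = 0.00707 by edgeR, Benjamini-Hochberg), and the call was made in all 15 alternatives, with log2 fold changes from -0.40 to -0.25.

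TEAD1 (ENSG00000187079, chr11:12674591-12944483, forward strand), the most abundant TEAD mRNA per kilobase, was at 442, 487 and 466 CPM in the control and 484, 494 and 453 CPM in the knockdown libraries. Its groups overlapped, and its 95% interval ran from 94.96% to 111% of the control level. Its log2 fold change was 0.04 (standard error 0.0533, adjusted p = 0.659 by edgeR, Benjamini-Hochberg).

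TEAD2 (ENSG00000074219, chr19:49340595-49362457, reverse strand) was at 46.4, 39.0 and 46.9 CPM in the control and 41.3, 38.3 and 45.8 CPM in the knockdown libraries. Its groups overlapped, and the interval ran from 83.8% to 107% of control (log2 fold change -0.08, standard error 0.0838, adjusted p = 0.550 by edgeR, Benjamini-Hochberg). TEAD3 (ENSG00000007866, chr6:35473597-35497076, reverse strand) was at 28.95, 26.1 and 29.2 CPM in the control and 26.0, 22.4 and 26.7 CPM in the knockdown libraries. Knockdown replicate 3 lay above control replicate 2, so the groups overlapped. The interval of TEAD3 ran from 78.7% to 101% of control (log2 fold change -0.17, standard error 0.0854, adjusted p = 0.173 by edgeR, Benjamini-Hochberg). TEAD3 was the member whose call depended on the model: with the replicate number as a block, its log2 fold change was -0.17 (standard error 0.0660, adjusted p = 0.0421 by edgeR, Benjamini-Hochberg), in a fit that called 37.0% of all tested genes.

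The values of the 3 uncalled TEAD genes moved with single libraries. Leaving out 1 library at a time, TEAD1 went from 0.00047 (without control replicate 1) to 0.071 (without control replicate 2), TEAD2 from -0.16 (without control replicate 2) to -0.02 (without knockdown replicate 2) and TEAD3 from -0.22 (without knockdown replicate 3) to -0.093 (without knockdown replicate 2), in log2 fold change. None of the 3 was called in these fits.

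The TEAD genes are related in sequence and function, and their levels per kilobase can be set side by side. In the control libraries TEAD1 was at 45.2 ± 2.20, TEAD4 at 17.8 ± 0.719, TEAD2 at 14.8 ± 1.48 and TEAD3 at 9.22 ± 0.579 CPM per kb (SD, n = 3). TEAD1 made up 49.8%, 55.1% and 51.0% of the sum in the control libraries and 56.3%, 59.1% and 52.5% in the knockdown libraries, which overlapped. The share of TEAD4 was 21.1%, 19.7% and 20.5% in the control libraries and 16.9%, 16.0% and 18.8% in the knockdown libraries, which did not overlap. TEAD4 ranked above TEAD2 in all 3 control libraries, and the means of both were close with knockdown, at 14.3 ± 1.41 for TEAD4 and 14.03 ± 1.26 CPM per kb for TEAD2 (SD, n = 3). The sum over the 4 TEAD genes was 87.1 ± 1.59 CPM per kb in the control and 83.0 ± 1.52 in the knockdown group (SD, n = 3), and the groups did not overlap. That separation depended on the scaling to length. Summed as plain CPM, the 4 genes were at 559 to 591 CPM in the control and 562 to 584 CPM in the knockdown libraries, which overlapped.

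**Figure D3:**
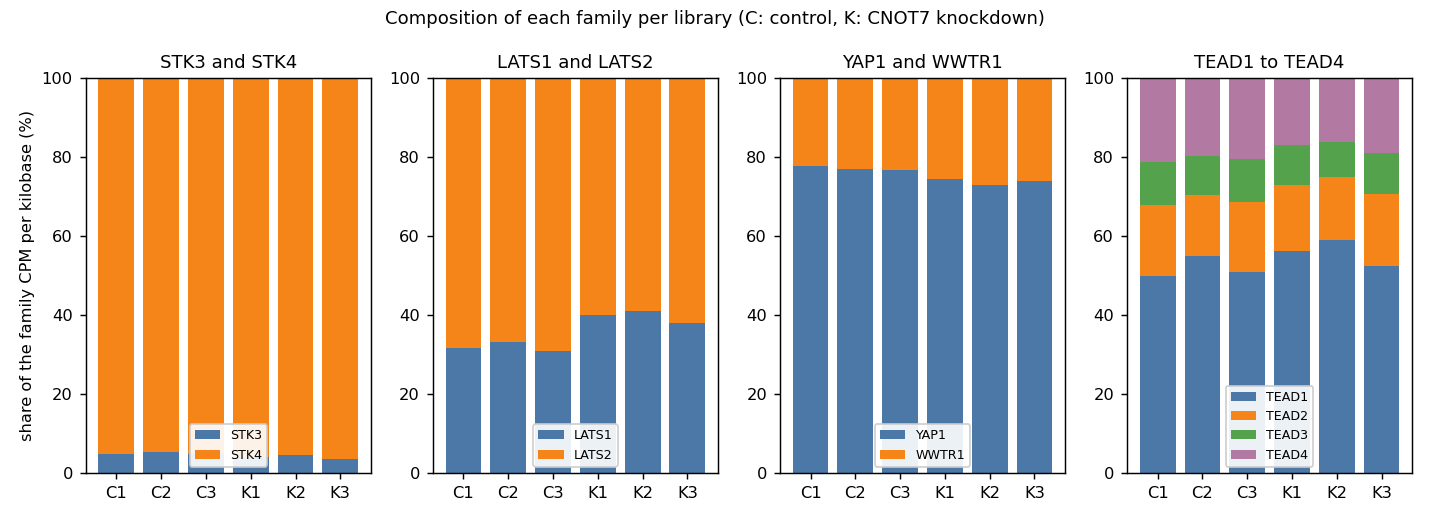
Share of each gene in the summed CPM per kilobase of its family (vertical axis, percent), for control libraries 1 to 3 (C1 to C3) and knockdown libraries 1 to 3 (K1 to K3). The share of LATS2 was 66.8% or more in the control and 61.9% or less in the knockdown libraries, and TEAD1 was the largest part of the TEAD sum in every library.

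VGLL4 (ENSG00000144560, chr3:11556070-11771350, reverse strand) encodes a vestigial-like protein that competes with YAP and TAZ for TEAD proteins, and it was the member that rose. It was at 25.8, 22.5 and 27.5 CPM in the control libraries and 35.4, 30.2 and 31.3 CPM in the knockdown libraries. The groups did not overlap, and knockdown replicate 1 was the highest library. The knockdown mean was 128% of the control mean (95% interval 112% to 145%). The log2 fold change was 0.35 (standard error 0.0883, adjusted p = 0.00695 by edgeR, Benjamini-Hochberg). The call rested on knockdown replicate 1: without that library the log2 fold change was 0.27 (standard error 0.101) and the adjusted p was 0.0787 in the same edgeR test, whereas VGLL4 was called in the other 14 alternatives. Of the exonic bases of VGLL4, 23.7% overlap genes on the opposite strand, ATG7 and AC022001.2, and the strand setting of the counting is not given in the sources used here. ATG7, an autophagy gene, was at 28.1 ± 1.04 CPM in the control and 26.9 ± 0.466 CPM in the knockdown group (SD, n = 3; log2 fold change -0.06, adjusted p = 0.591 by edgeR, Benjamini-Hochberg), and AC022001.2 had at most 6 counts in any library. The other vestigial-like genes VGLL1, VGLL2 and VGLL3 had at most 6 counts in any library and were not tested.

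Opposite-strand genes also overlapped 10.7% of the exonic bases of TEAD2, 9.97% of YAP1, 9.45% of WWTR1, 4.72% of LATS1 and 0.841% of STK3, and none of LATS2, TEAD1, TEAD3 or TEAD4. For YAP1 the overlapping gene was AP000942.2, which had 0 counts in every library. No member shared exonic bases with a gene on its own strand.

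Per kilobase, the order of the control levels was YAP1, TEAD1, TEAD4, WWTR1, TEAD2, LATS2, TEAD3, LATS1, VGLL4 and STK3, from 50.8 ± 2.25 CPM per kb for YAP1 to 1.35 ± 0.173 for STK3 (SD, n = 3). WWTR1 and TEAD2 were the one pair of neighbours whose control libraries overlapped. Every other neighbouring pair was separated in these 3 libraries, YAP1 and TEAD1 by the least relative to their level, with 49.0 CPM per kb as the lowest YAP1 value and 47.4 as the highest TEAD1 value. With knockdown the first places of this order changed, with TEAD1 at 46.4 ± 2.06 and YAP1 at 43.5 ± 1.18 CPM per kb (SD, n = 3), though their libraries overlapped. WWTR1 also moved above TEAD4, at 15.4 ± 1.05 against 14.3 ± 1.41 CPM per kb (SD, n = 3), again with overlapping libraries. These lengths are merged exons of all annotated transcripts, so the order can depend on which transcripts the cells use.

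Each gene was also read pair by pair, with libraries of the same replicate number set against each other. Over all genes these numbers matched the libraries unevenly: replicates 2 deviated from their group means together (correlation 0.646), but control replicate 1 correlated at 0.554 with knockdown replicate 3 and at 0.236 with knockdown replicate 1. The log2 ratio of knockdown to control was below 0 in all 3 pairs for 6 genes, namely LATS2, YAP1, TEAD4, TEAD3, STK3 and TEAD2, above 0 in all 3 pairs for VGLL4 and WWTR1, and mixed for LATS1 and TEAD1. Thus 8 of 10 moved one way in all pairs, where 58.8% of all tested genes did. LATS2 had log2 ratios of -0.44, -0.42 and -0.49 in pairs 1, 2 and 3. YAP1 had -0.23, -0.25 and -0.19. TEAD3 had -0.15, -0.22 and -0.13, and WWTR1 stayed within 0.02 to 0.06. Without regard to pairs, the groups of 4 of the 10 genes did not overlap, LATS2, YAP1, TEAD4 and VGLL4, where the same held for 38.8% of the tested genes.

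The 3′ untranslated regions of the 10 genes were also described, because CCR4-NOT is recruited to mRNAs by proteins that bind there, such as those that bind AU-rich elements and the Pumilio proteins. The longest annotated 3′ region was taken for each gene. The pentamer ATTTA, the core of AU-rich elements, occurred 17 times in LATS1, 17 in TEAD1, 12 in WWTR1, 9 in YAP1, 6 in LATS2, 6 in STK3, 3 in VGLL4, 1 in TEAD2, 1 in TEAD3 and 0 in TEAD4, searched on the strand of the mRNA. It occurred at least once in 9 of 10 members and in 71.4% of the 13586 tested genes with such a region. The median density was 2.46 per kilobase in the members and 1.55 in those genes. The regions of the members were longer, with a median of 2162 bases against 1311 in the tested genes, and longer regions hold a given motif more often. The Pumilio motif TGTANATA occurred in LATS1, TEAD1 and YAP1, and in 28.1% of the tested genes. Among the genes that were lower, LATS2 and YAP1 held several copies of ATTTA and TEAD4 held none in a region of 195 bases. LATS1 and TEAD1, with the most copies, did not pass the test in either direction.

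The other genes of the pathway were read from a list of 65, of which 61 could be tested. This list was also chosen with earlier results of these data known, so its counts are no independent evidence. Of the 61, 19 were lower and 2 were higher with CNOT7 knockdown, so 31.1% were lower. The background given above was 11.9% for all genes, whereas 1795 of the 10107 genes with at least 10 CPM were lower and 1260 higher. The list was not matched to either background by level. The median log2 fold change of the 61 was -0.10. With the replicate number as a block, 28 were lower and 6 higher, in a fit that called 18.8% of all tested genes lower and 18.2% higher. Of the 61, 3 genes (AMOTL2, PTPN14 and FJX1) also stand in the list of YAP and TAZ targets, and without them 16 of 58 were lower and 2 higher.

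Among the partners closest to the kinases, SAV1, the scaffold of STK3 and STK4, fell (log2 fold change -0.25), and MOB1A, MOB1B, STK38 and STK38L did not pass the test. Of 19 upstream activators, 8 fell and 2 rose, where 11.9% of all tested genes were lower and 13.3% higher. The angiomotin-like gene AMOTL2, whose product binds YAP and holds it in the cytoplasm, had the largest fall of the list, from 242 ± 6.22 to 109 ± 4.06 CPM (SD, n = 3; log2 fold change -1.15, standard error 0.0541). AMOT, of the same family, rose from 38.8 ± 1.28 to 63.7 ± 0.919 CPM (SD, n = 3; log2 fold change 0.72, standard error 0.0634), so that angiomotin family members moved in opposite directions, and AMOTL1 did not pass the test. RASSF6, which binds the MST kinases, rose from 1.66 ± 0.362 to 2.81 ± 0.546 CPM (SD, n = 3; log2 fold change 0.74, standard error 0.222), and its adjusted p was 0.0204 by edgeR, Benjamini-Hochberg. The call of RASSF6 was lost without control replicate 2, knockdown replicate 1 or knockdown replicate 2, with adjusted p-values of 0.0765, 0.0878 and 0.0623 from edgeR. The other activators that fell were PTPN14 (-0.41), WWC3 (-0.38), NF2 (-0.36), WWC2 (-0.36), MAP4K3 (-0.34), WWC1 (-0.31) and MAP4K5 (-0.30), in log2 fold change. NF2 encodes merlin, and the WWC genes encode KIBRA and its relatives, all of which promote LATS activation.

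Of 11 tested cadherin and polarity genes, 4 fell: MPP5 (-0.77), FJX1 (-0.65), DLG1 (-0.45) and FAT1 (-0.38). For this and the following roles, the share of all tested genes that fell was 11.9%. Of the 10107 genes with at least 10 CPM, 1795 fell. Of 14 genes of the STRIPAK phosphatase complex and of the LIM proteins that inhibit LATS, 3 fell. These included AJUBA, from 69.0 ± 2.15 to 32.9 ± 0.868 CPM (SD, n = 3; log2 fold change -1.07, standard error 0.0644), and WTIP, from 21.8 ± 1.39 to 12.03 ± 2.63 CPM (SD, n = 3; log2 fold change -0.86, standard error 0.124). Both encode LIM proteins that bind LATS kinases and restrain them. Of 11 genes that act on phosphorylated YAP, YWHAH (-0.57), YWHAZ (-0.21) and CSNK1D (-0.21) fell. Leaving out single libraries ended the smaller calls of this list. The adjusted p from edgeR rose to 0.103 for SAV1 (without knockdown replicate 1, and above 0.05 without control replicate 2 or knockdown replicate 3), 0.0917 for CSNK1D (without control replicate 1, and above 0.05 without knockdown replicate 1), 0.0590 for MAP4K3 (without control replicate 2) and 0.0569 for YWHAZ (without knockdown replicate 1). The lower genes included both activators and inhibitors of LATS, as the plot by role shows.

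**Figure D4:**
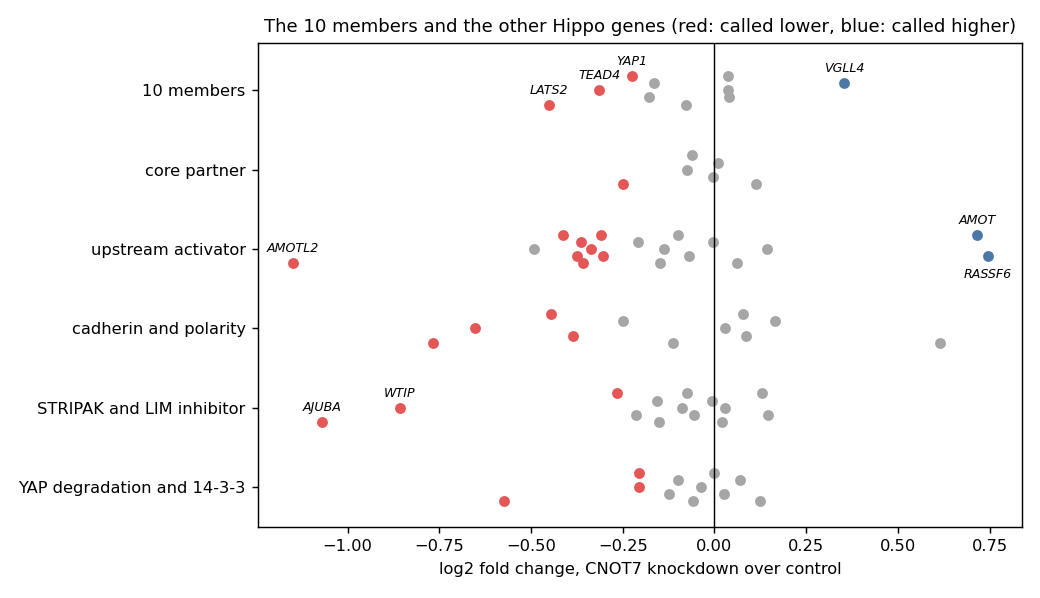
Log2 fold change of CNOT7 knockdown over control (horizontal axis) for the 10 members and for the 61 other tested pathway genes by role, each point a gene, with red for called lower, blue for called higher and grey for not called. The members lie between -0.45 and 0.35, while AMOTL2, AJUBA, WTIP, RASSF6 and AMOT are among the genes that reach beyond that range.

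For the readout of the co-activators, 21 of 22 listed YAP and TAZ target genes could be tested. Of these, 18 were lower and 2 higher, where 11.9% of all tested genes were lower and 13.3% higher. Among the 10107 genes with at least 10 CPM, 1795 were lower and 1260 higher. The largest falls were in CYR61 (log2 fold change -2.69, standard error 0.0667), CTGF (-1.63, standard error 0.131) and ANKRD1 (-1.59, standard error 0.0533). The ones that rose were IGFBP3 (0.39) and CCDC80 (0.37, with an adjusted p from edgeR of 0.0955 without control replicate 1 and above 0.05 without control replicate 3, knockdown replicate 1 or knockdown replicate 2), and the median over the list was -0.63. This list was used with its fall in these libraries already known and holds LATS2, so its count is no independent evidence. In log2 units, CYR61 differed by -2.69 and its co-activators by -0.22 for YAP1 and 0.04 for WWTR1.

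The genes whose profile over the 6 libraries was most like that of LATS2 were found by the root mean square difference of log2 CPM after centring on the control mean, among 14714 other genes with a mean of at least 1 CPM. They were SPATS2L (difference 0.0240), ACTB (0.0272) and ZNF827 (0.0275). ACTB, the gene of cytoplasmic beta-actin, went from 5260 ± 124 to 3922 ± 81.7 CPM (SD, n = 3; log2 fold change -0.42, standard error 0.0420, adjusted p = 1.24e-06 by edgeR, Benjamini-Hochberg). SPATS2L and ZNF827 had log2 fold changes of -0.46 and -0.44.

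**Figure D5:**
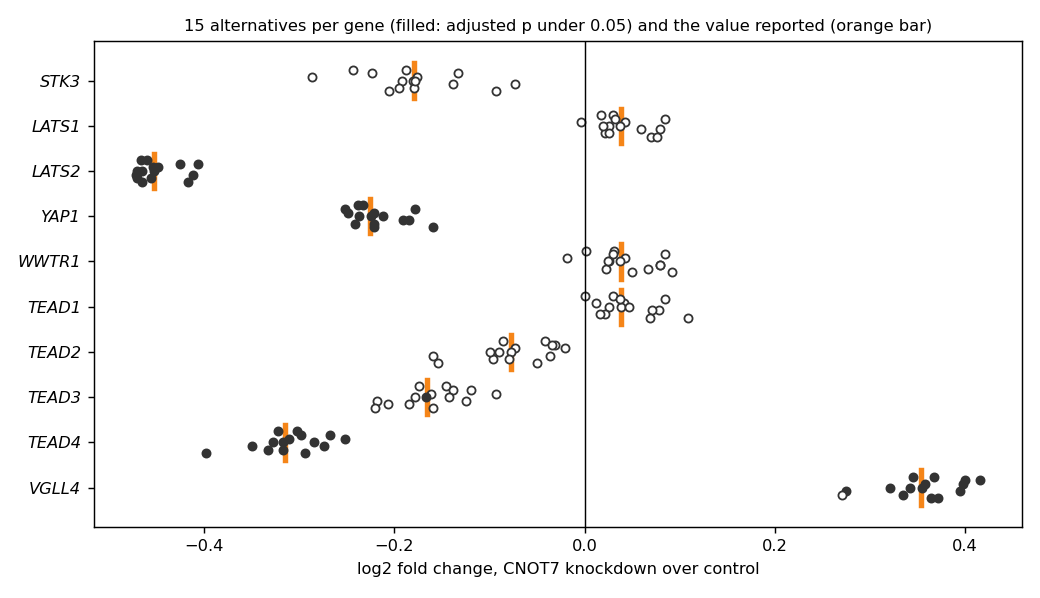
Log2 fold change of each gene (horizontal axis) in 15 alternative analyses, filled where the adjusted p was under 0.05, with an orange bar at the value reported. LATS2, YAP1 and TEAD4 are filled throughout, VGLL4 in 14 of 15, TEAD3 in 1 of 15, and the other 5 genes in none.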

How the data were processed

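Libraries were made with the NEBNext Ultra RNA kit from RNA that the authors isolated with TRIzol, and the authors deposited raw counts per gene, unnormalized, with a gene length. The submitters' processing notes name CASAVA 1.8, fastp, HISAT2 2.0.5, featureCounts 1.5.0-p3 and DESeq2 1.20.0, without their settings. Identifiers, positions and lengths of all 58735 genes matched GENCODE release 29 (GRCh38). The names of the 10 genes and all gene lists were chosen with earlier results of these data known.

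The counts went into edgeR 4.0.16 (R 4.3.3): filterByExpr (17574 genes left), TMM, glmQLFit and glmQLFTest between the 2 groups, Benjamini-Hochberg adjustment over all tested genes, threshold 0.05 without a minimum fold change. Standard errors were derived from the F statistic (log2 fold change over its root), and the 95% intervals follow from them. Levels between genes are CPM per kilobase of merged exons. DESeq2 1.42.0 was an alternative. The steps were run on simulated counts of independent libraries, so that check does not cover effects shared between libraries. Named were all 10 members, CNOT7, STK4, every called pathway gene (except 1 that is not reported here), the 3 targets with the largest change in each direction, and the 3 genes nearest to LATS2 in profile. Replicates of a group differed by more than sampling noise. The deviations of same-numbered libraries from their group means correlated at 0.236, 0.646 and 0.106 over 10107 genes with at least 10 CPM. The main fit did not pair the libraries. The replicate numbers of the labels served as a block in an alternative fit and in the pair-by-pair reading. Other numbers matched better for 2 of the 3 control libraries: control 1 correlated at 0.554 with knockdown 3, and control 3 at 0.113 with knockdown 1. Motifs were searched in RefSeq promoter windows and GENCODE transcripts with Python 3.11.15.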

Additional observations from a re-analysis of the deposited data

How the results depend on the processing

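The alternatives were DESeq2, RLE and upper quartile factors, library totals alone, no filter, at least 10 counts in every library, cyclic loess offsets, the replicate block and each library left out. Chosen after seeing the data were a fit without both libraries numbered 2, which differed most from the others, the genes with at least 10 CPM, the pathway list without its targets, and all of these settings for 27 other named genes. For the members, LATS1 and WWTR1 changed sign without knockdown replicate 2, and with single libraries left out their log2 fold changes ranged from -0.0038 to 0.076 (LATS1) and from -0.019 to 0.079 (WWTR1), none called. The replicate block added the call of TEAD3 (-0.17) and changed no other member call, CNOT7 included (-2.05). Over all genes it gave 3306 lower genes in place of 2095, an absolute log2 fold change of at least 0.3 gave 1102, and leaving out single libraries gave 1367 (without control replicate 3) to 2219. Of the higher genes, 1260 had at least 10 CPM, and of the 2095 lower genes 1795 did. Members called higher ranged from 0 to 1 with single libraries left out. Pathway genes called higher, 2 as reported, were 1 with DESeq2, 4 with upper quartile factors, 5 with library totals alone, 6 with the replicate block and 1 to 2 with single libraries left out. Targets called higher were 1 to 2 with single libraries left out. The order of the members per kilobase was the same as TPM. The cause of these shifts was not tested. Of 405 values of the other named genes, 375 kept their side of the threshold and their direction, 25 lost and 5 gained a call, and none changed sign. STK4 was called with the block, cyclic loess, upper quartile factors, library totals alone and without both libraries numbered 2. With 3 libraries a group, the 95% intervals of the uncalled members reached from 74.9% of control (STK3) to 113% (LATS1).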
